A study of Rattus norvegicus with 96 samples.

Results

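The microRNAs of the liver were compared between male Sprague Dawley rats fed a whole egg-based diet (egg) and rats fed a casein-based diet (casein), across all 52 microRNAs of the liver count table. They make up 52 of the 265 entries in the microRNA tables of 4 tissues. The series covers prefrontal cortex (PFC), visceral adipose tissue (VAT), liver and kidney of 12 rats, each sequenced for messenger RNA and for small RNA (96 samples). There were 6 rats on each diet, and each gave 1 liver small RNA library. Rats of both groups ate their diet for 2 weeks, were 9 weeks old at collection and had been fasted overnight. In the egg diet, dried whole egg took the place of the casein and the corn oil of the other diet, so that protein and fat were matched in amount but not in source, and biotin was added to the egg diet alone. The diet of each library was read from its column heading, which holds the animal number and the word egg or casein.

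MicroRNAs are short RNAs cut from hairpin precursors and loaded onto Argonaute proteins. They pair with messenger RNAs mainly through bases 2 to 8 of their 5′ end, called the seed, and lower the stability and translation of those messages. In liver, miR-122 is the defining microRNA of hepatocytes and is needed for normal cholesterol synthesis in mice, miR-192 and miR-194 are shared by liver, kidney and gut epithelium, and miR-21 is a widely expressed microRNA whose level rises in injured and regenerating liver.

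The mature sequences of the microRNAs that the results turn on are shown with the seed in capitals, from RefSeq on rat build GRCr8, where 45 of the 52 microRNAs were matched by name. The first 4 are the microRNAs with the lowest p-values, the cluster partner of miR-192 and the hepatocyte microRNA.
miR-192-5p: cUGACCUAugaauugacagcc
miR-21-5p: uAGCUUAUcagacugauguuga
miR-194-5p: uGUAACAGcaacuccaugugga
miR-122-5p: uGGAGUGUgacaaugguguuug
MiR-192-5p lies on the plus strand at chr1:212994232-212994252, and starts 173 bases past the end of a copy of miR-194-5p; no other annotated gene spans it. The other copy of miR-194-5p is on chromosome 13 within the span of Iars2. MiR-21-5p lies on the minus strand at chr10:71902653-71902674, outside any other gene span, and miR-122-5p on the plus strand at chr18:61028831-61028852, within the span of a transcribed pseudogene, LOC134482951. No other matched microRNA shares the seed of miR-192-5p or that of miR-21-5p. MiR-30b-5p, miR-30d-5p, miR-30e-3p, miR-99a-5p, miR-200b-3p, miR-378b and miR-486 are given by name only.

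The second set shows microRNAs that differ by few bases, between which reads with a mismatch could be split in counting, so that their single levels are uncertain.
let-7a-5p: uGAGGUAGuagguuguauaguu
let-7c-5p: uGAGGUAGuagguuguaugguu
let-7e-5p: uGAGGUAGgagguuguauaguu
let-7g-5p: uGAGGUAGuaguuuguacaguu
miR-98-5p: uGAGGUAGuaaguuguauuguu
miR-101a-3p: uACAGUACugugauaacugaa
miR-101b-3p: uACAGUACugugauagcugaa
miR-10a-5p: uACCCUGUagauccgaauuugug
miR-10b-5p: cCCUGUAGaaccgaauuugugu
Counted from 1 at the 5′ end, let-7a-5p and let-7c-5p differ only by A19G, let-7a-5p and let-7e-5p only by U9G, and miR-101a-3p and miR-101b-3p only by A16G. The annotated forms of miR-10a-5p and miR-10b-5p have different seeds because that of miR-10b-5p starts further along a nearly identical sequence. Among the annotated forms of the 45 matched microRNAs there were 28 seeds, of which 10 were shared by 27 microRNAs and 18 belonged to a single one.

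The libraries held between 845543 and 1870868 counts over the 52 microRNAs, with a median of 1134192 on casein and 1255675 on egg. Total counts overlapped between the diets (exact two-sided permutation test over all 924 splits of the rats, p = 0.63). The liver label was borne out by miR-122-5p, which took between 22.6 and 46.8% of the liver counts, against 0.0958 to 4.45% in kidney, 0.0971 to 1.67% in VAT and 0.0613 to 0.616% in PFC. The brain microRNA miR-9a-5p, at a median of 23.3% in PFC, was not listed in the liver table. MiR-122-5p held 35.1 ± 10.1% of the counts on casein and 37.5 ± 8.12% on egg (SD, n = 6 rats each), and the groups overlapped (exact permutation test, p = 0.626). The 10 most abundant microRNAs together held between 86.5 and 91.1% of a library in scaled counts, so a library's scale rests on few sequences.

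With the whole egg diet, miR-192-5p and miR-21-5p were lower in the liver at an unadjusted p under 0.05 (edgeR's quasi-likelihood test), which is 3.85% of the 52 tested, and 0 were higher (0%). Neither passed after Benjamini-Hochberg (BH) adjustment, and 0 of 52 did by edgeR, DESeq2 or limma-voom. Levels are CPM, a microRNA's count divided by the scaled library total and brought to a common unit for all libraries, after TMM scaling, edgeR's method for making libraries comparable, and fold changes are egg over casein on the log2 scale. Scaling alone moved these results: by default, the tool measured every library against that of rat 3 (casein), and with any of the other 11 libraries as that reference miR-192-5p did not pass an unadjusted p of 0.05. In bulk tissue, fewer cells of a type and less of a microRNA per cell cannot be told apart.

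MiR-192-5p was the third most abundant microRNA of the liver. Its level was 118666, 121330, 130848, 133805, 134311 and 148209 CPM in the 6 rats on casein. In the rats on egg it was 98224, 99853, 102738, 103117, 111118 and 115409 CPM. All 6 rats on egg lay below the lowest rat on casein, and miR-192-5p was the only microRNA whose diets did not overlap (1.92% of 52). The mean was 131195 ± 10587 CPM on casein and 105077 ± 6735 on egg (SD over 6 rats). On the log2 scale this was a difference of -0.32 (SE 0.0855, 95% interval -0.51 to -0.13), with p = 0.00284 and adjusted p = 0.105 in edgeR's test. As a plain share, which scales each library to its total count alone, miR-192-5p held 12.9 ± 2.15% on casein and 10.8 ± 1.46% on egg. The ranges overlapped (9.66 to 15.5% and 8.82 to 13.1%), and the difference did not pass (exact permutation test, p = 0.0823, adjusted p = 0.123 over 3 measures). A share also moves with the other abundant microRNAs of a library, such as miR-122-5p.

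MiR-21-5p, whose known targets include Pdcd4, an inhibitor of translation, showed the larger difference of the pair. The rats on casein had 33808, 35670, 37810, 42547, 44642 and 44839 CPM. The rats on egg had 19344, 22254, 23557, 29359, 32188 and 35588 CPM. Every rat on egg was below the median of casein, and 1 of them, rat 10, was above the lowest rat on casein. The mean was 39886 ± 4759 CPM on casein and 27048 ± 6312 on egg (SD over 6 rats). On the log2 scale this was a difference of -0.56 (SE 0.158, 95% interval -0.91 to -0.21), with p = 0.00405 and adjusted p = 0.105 in edgeR's test. As a plain share, miR-21-5p took 3.9 ± 0.543% of the counts on casein and 2.82 ± 0.789% on egg, with 6 of 6 rats on egg below the median of casein. The exact permutation test gave p = 0.0173 and adjusted p = 0.0519 over 3 measures. The shares of miR-192-5p and miR-21-5p were tested because their p was lowest among the 52 in the same libraries. The adjustment over 3 measures does not cover that choice.

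**Figure D1:**
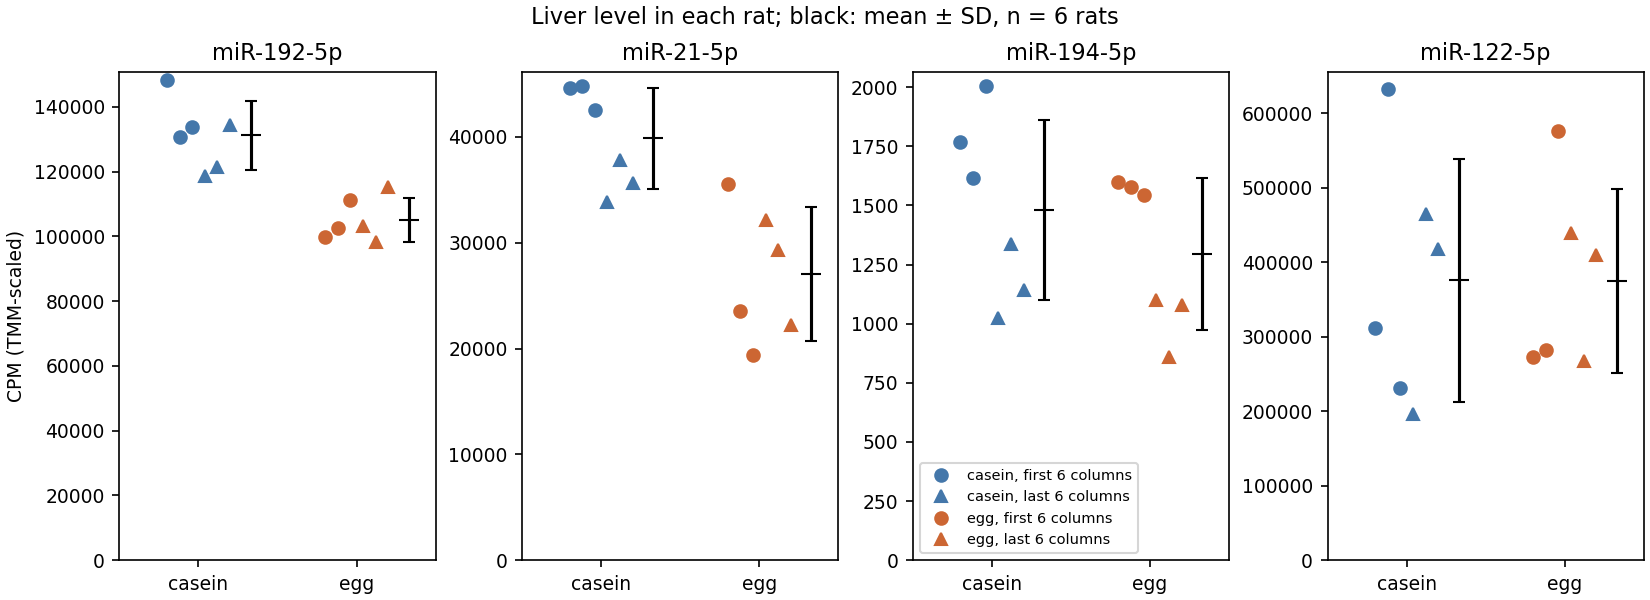
Level of 4 liver microRNAs in each rat, in TMM-scaled CPM on a linear axis from 0, with circles for the first 6 and triangles for the last 6 columns of the count table and black bars for the mean ± SD of 6 rats. The rats on egg sit at 98224 to 115409 CPM for miR-192-5p, all below the rats on casein under this scaling, while the diets overlap in miR-122-5p and miR-194-5p follows the column position.

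MiR-194-5p, which is cut from the same chromosome 1 cluster as miR-192-5p and from a second copy, gave a way to compare the pair within a library. By edgeR, miR-194-5p had a log2 fold change of -0.20 (SE 0.218) and an adjusted p of 0.83. The log2 ratio of miR-192-5p to miR-194-5p was 6.51 ± 0.317 on casein and 6.38 ± 0.378 on egg (SD over 6 rats). The diets overlapped in this ratio, and the difference did not pass (exact permutation test, p = 0.537, adjusted p = 0.537 over 3 measures). The ratio followed the order of the columns in the count table instead, at 5.96 to 6.39 in the first 6 and 6.50 to 6.88 in the last 6 with no overlap, which that test does not take into account. Egg minus casein was -0.21 within the first 6 columns and -0.04 within the last 6.

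The direction of the whole table depended on the scaling. Under TMM with its default reference, 41 of the 52 log2 fold changes were below 0 and 11 above, with a median of -0.17. DESeq2's size factors moved that median by 0.13, which gave 30 below 0 and 22 above. Scaling to the total count moved it by 0.06 (34 below 0, 18 above), and leaving miR-122-5p out of the scaling moved it by 0.12 (30 below 0, 22 above). Set against the median of all 52, miR-192-5p stood 0.15 lower and miR-21-5p 0.39 lower in the default fit, and 0.16 and 0.41 lower with DESeq2's size factors. The directions of all other microRNAs are given under the default scaling, to be read against its median of -0.17.

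With each of the other 11 libraries as the TMM reference, the median of the 52 lay between -0.05 and 0.05. MiR-192-5p then had log2 fold changes from -0.21 to -0.11, and its p ran from 0.0977 to 0.362 (edgeR). MiR-21-5p had values from -0.47 to -0.35, with p from 0.0133 to 0.0643 (edgeR), and was under 0.05 with 8 of the 11. In the miR-30 family, miR-30c-5p and miR-30d-5p were each higher at an unadjusted p under 0.05 with 6 of the 11, and miR-26a-5p with 1. Leaving out rat 3 altogether moved the median to 0.10 and the log2 fold changes to -0.06 for miR-192-5p (p = 0.613, edgeR) and -0.31 for miR-21-5p (p = 0.108, edgeR), which were 0.15 and 0.41 below that median.

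**Figure D2:**
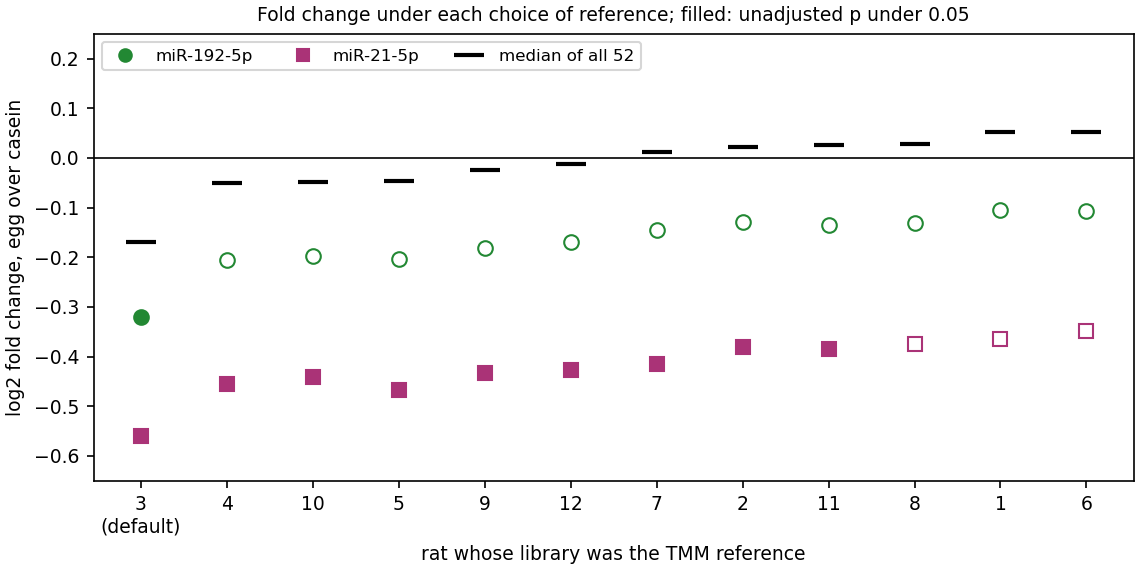
Log2 fold change of miR-192-5p (circles) and miR-21-5p (squares), and the median of all 52 microRNAs (bars), for each choice of the rat whose library was the TMM reference. Filled symbols have an unadjusted p under 0.05 in edgeR: miR-192-5p is filled for rat 3 only and miR-21-5p for 9 of the 12, and the 3 values move together.

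Among the 10 most abundant microRNAs, the remaining 8 showed no difference between the diets that passed the test. MiR-122-5p ranged from 196174 to 633079 CPM on casein (median 364533) and from 267460 to 576611 on egg (median 345862). The diets overlapped over nearly their whole range, with a fold of 0.997 and a 95% interval of the log2 fold change from -0.68 to 0.67. The test therefore does not show that the level was the same on both diets, only that a difference beyond that interval was not seen.

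The intervals of the other abundant microRNAs were narrower where the 12 rats agreed. Let-7f-5p, at a mean of 67009 CPM, had a log2 fold change of -0.05 (95% interval -0.36 to 0.26), miR-30a-5p one of -0.01 (-0.33 to 0.31) and miR-26a-5p one of 0.10 (-0.18 to 0.38). Let-7a-5p had -0.11 (-0.51 to 0.28) and miR-148a-3p, which targets the LDL receptor message in mice, had 0.15 (-0.55 to 0.85). MiR-10a-5p, the second most abundant at 125633 CPM, had -0.22 (-1.30 to 0.85), and miR-486 had the widest interval of the 10, from -1.50 to 5.06. Over the table, the interval lay within 1 log2 unit of 0 for 32 of the 52 and reached beyond it for 20.

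**Figure D3:**
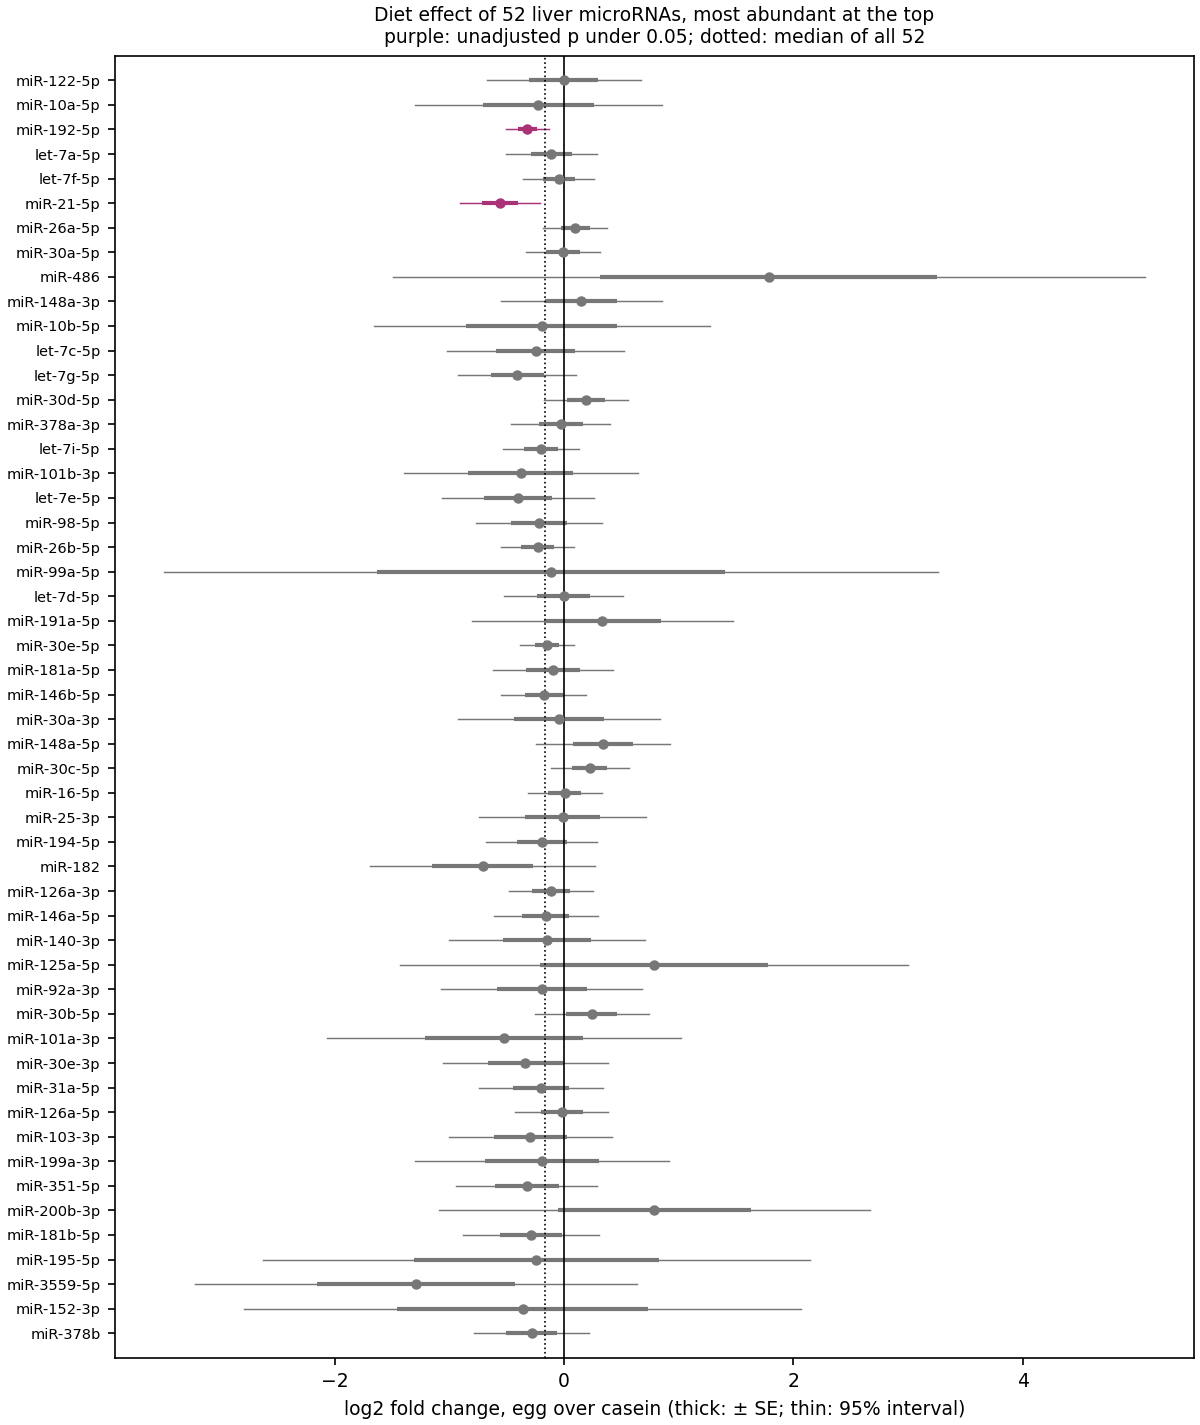
Log2 fold change of egg over casein for all 52 liver microRNAs, ordered by mean level with the most abundant at the top; thick lines are ± SE and thin lines the 95% interval, the solid vertical line is 0 and the dotted one the median of -0.17. Only miR-192-5p and miR-21-5p, in purple, have an unadjusted p under 0.05, and the widest intervals belong to microRNAs such as miR-486 and miR-99a-5p.

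The let-7 family, with miR-98, restrains growth and cell cycle genes and was the largest family in the table, with 8 members that share 1 seed. All 8 had log2 fold changes below 0, from -0.41 for let-7g-5p to -0.01 for let-7d-5p, with a median of -0.21 against -0.17 over all 52, and 0 of the 8 had an unadjusted p under 0.05. With DESeq2's size factors the family's median was -0.10, against -0.03 over all 52, and 5 of the 8 were below 0. With the other 11 TMM references 4 or 5 of the 8 were below 0, so the shared sign depended on the scaling. In the most changed member, let-7g-5p, the rats on casein had from 7349 to 12346 CPM with a median of 9329, and the rats on egg from 3836 to 9890 with a median of 7193. The groups overlapped, and its test gave p = 0.103 and adjusted p = 0.83 (edgeR).

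The miR-30 family, which is abundant in liver and whose member miR-30c lowers lipoprotein assembly in mice, went both ways. Of its 7 arms, 4 had log2 fold changes below 0 and 3 above, with a median of -0.01, which became 0.12 with DESeq2's size factors. MiR-30c-5p ranged from 1259 to 2172 CPM on casein (median 1746) and from 1620 to 2175 on egg (median 2034), and 5 of 6 rats on egg were above the median of casein. Its log2 fold change was 0.22 (SE 0.152, p = 0.169 from edgeR), and it was 0.35 with DESeq2's Wald test (p = 0.0281, not past BH adjustment). MiR-30d-5p had 0.19 and miR-30a-5p -0.01.

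Against a list of 21 names linked to sterol and lipid metabolism in the literature, the table held 10 microRNAs. They include miR-192-5p, miR-21-5p and both arms of miR-148a, which is a single name of the list. The log2 fold changes of these 10 were below 0 for 7 and above for 3, with a median of -0.16 against -0.17 over all 52. Beside the pair already described, miR-182, which is cut from a cluster induced by SREBP-2 in mice, averaged 1705 ± 907 CPM in the casein rats and 1042 ± 542 in the egg rats (SD over 6). Its groups overlapped (log2 fold change -0.71, SE 0.441, adjusted p = 0.83 from edgeR). MiR-378a-3p, within the span of Ppargc1b, had a log2 fold change of -0.03, miR-103-3p one of -0.30, and miR-148a-5p one of 0.34.

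The smaller families were each represented by 1 to 3 members, none with an unadjusted p under 0.05. The miR-101 pair, which targets the histone methyltransferase EZH2 in human cells, had log2 fold changes of -0.52 for miR-101a-3p and -0.38 for miR-101b-3p. MiR-26b-5p had -0.23 where miR-26a-5p had 0.10. In the miR-15/16 family miR-16-5p was at 0.00 and miR-195-5p at -0.24, in the miR-17 type clusters miR-25-3p was at -0.01 and miR-92a-3p at -0.20, and the miR-181 pair had -0.10 for miR-181a-5p and -0.29 for miR-181b-5p. The spread of these values, from -0.52 to 0.10, lay within the range of the table, which ran from -1.29 for miR-3559-5p to 1.78 for miR-486, with 45 of 52 within 0.5 of 0. Among the remaining families the Hox-linked miR-10b-5p had -0.20, miR-99a-5p -0.11, miR-125a-5p 0.78 and miR-152-3p -0.36, also with no unadjusted p under 0.05. These values rested on the fit, since limma-voom gave 0.27 for miR-10b-5p, -3.79 for miR-99a-5p and -0.59 for miR-125a-5p, and the column term gave 0.31, -0.81 and 0.11 (edgeR). MiR-200b-3p, an epithelial microRNA, ranged from 108 to 336 CPM on casein and from 0 to 521 on egg, and 5 of 6 rats on egg were above the median of casein. Its log2 fold change was 0.79 (SE 0.844, p = 0.37 from edgeR) and -0.33 with limma-voom. Without rat 10, the one at 0, it was 1.05 (p = 0.00543), and in the last 6 columns alone 1.60 (p = 0.00169), neither past BH adjustment (edgeR). The miR-23/27/24 and miR-29 lists had no member in the table.

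The remaining members belonged to no list. The log2 fold changes of miR-140-3p, miR-146a-5p, miR-146b-5p and miR-31a-5p were -0.15, -0.16, -0.18 and -0.20. MiR-191a-5p had 0.33, miR-351-5p -0.33 and miR-378b, the least abundant at 89.3 CPM, -0.28. MiR-3559-5p had from 151 to 978 CPM on casein and from 0 to 217 on egg; its groups overlapped, and the highest value came from 1 rat (adjusted p = 0.83 from edgeR).

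MicroRNAs of other cell types were few in the table. White blood cell, brain and striated muscle microRNAs (4, 5 and 3 names) had no counterpart in it. An unlisted name does not show that the microRNA was absent from liver. The brain microRNA miR-124-3p was not listed in PFC either. MiR-142-3p, miR-150-5p, miR-223-3p and miR-451-5p were listed in none of the tissues. Of the red blood cell list 1 of 3 was present, miR-486, at 0.0284 to 3.32% of the counts on casein and 0.0479 to 16.5% on egg; miR-451 and miR-144 were not listed. Of the kidney list miR-10a-5p and miR-10b-5p were present, which liver also expresses, at 6.78 to 25.5% together on casein and 4.71 to 22.9% on egg. The endothelial arms miR-126a-3p and miR-126a-5p together took between 0.139 and 0.229% of the counts on casein and between 0.147 and 0.249% on egg. MiR-199a-3p, a stromal microRNA of stellate and smooth muscle cells, took 0.015 to 0.068% on casein and 0.011 to 0.078% on egg, and the epithelial miR-200b-3p 0.011 to 0.033% and 0 to 0.059%. These ranges overlapped between the diets, and their part in the results was not tested.

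The widest spread among the 52 microRNAs followed the position of the columns, not the diet. The count table lists rats 3, 9 and 6 on casein and 10, 4 and 8 on egg, then rats 1, 11 and 7 on casein and 12, 2 and 5 on egg, so each run of 6 columns holds 3 rats per diet. The labels name no batch, and the column order carries no stated meaning. The first principal component of the log2 CPM took 55.6% of the variance, with scores of 3.08 to 10.7 in the first 6 columns and of -9.44 to -4.25 in the last 6. Of the 52 microRNAs, 16 (30.8%) did not overlap between the first and last 6 columns, 8 higher in each (15.4% each), against 1 between the diets.

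Those higher in the first 6 columns were led by miR-99a-5p and miR-125a-5p. MiR-99a-5p had from 4723 to 9024 CPM in the first 6 columns (median 7356) and from 0 to 518 in the last 6 (median 182). MiR-125a-5p, at 607 to 5157 against 85.7 to 562 CPM, and the Hox-linked miR-10a-5p, at 161493 to 239324 against 35961 to 88092 CPM, followed the same order. MiR-10b-5p, miR-191a-5p, miR-148a-3p, let-7c-5p and miR-194-5p were the others, and the ratio of medians over the 8 ran from 1.48 to 40.4.

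Those higher in the last 6 columns were led by miR-486, which is abundant in red blood cells. It had from 384 to 963 CPM in the first 6 columns and from 12499 to 151984 in the last 6, which as a plain share is 0.0284 to 0.0973% and 1.22 to 16.5% of the counts. MiR-101a-3p had a median of 285 CPM in the first 6 columns, and 1024 to 2529 in the last 6. MiR-152-3p, miR-195-5p, miR-30a-3p, miR-30e-3p, miR-140-3p and miR-148a-5p were the others, and the ratio of medians over the 8 ran from 1.57 to 22.9.

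**Figure D4:**
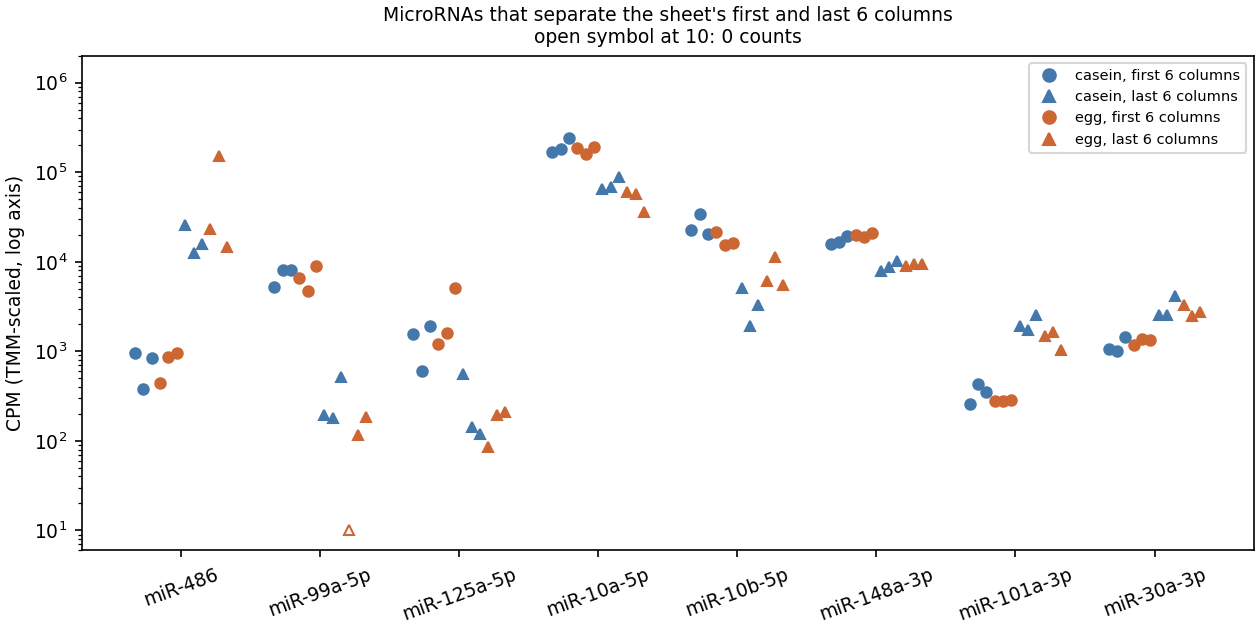
Level of 8 microRNAs in each rat, in TMM-scaled CPM on a log axis, with circles for the first 6 and triangles for the last 6 columns, blue for casein and orange for egg; an open symbol at 10 stands for 0 counts. Circles and triangles separate for every microRNA shown, whereas blue and orange overlap over the 12 rats, and 1 rat on egg reaches 151984 CPM of miR-486.

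The 2 arms of a hairpin are made in equal number, so their ratio gave a measure within a library. The log2 ratio of miR-148a-5p to miR-148a-3p was between -4.13 and -3.31 in the first 6 columns and between -2.40 and -1.33 in the last 6. The log2 ratio of miR-30a-5p to miR-30a-3p was between 3.68 and 4.42 and between 2.71 and 3.19, and that of miR-30e-5p to miR-30e-3p between 1.77 and 2.32 and between 0.64 and 1.62. In these 3 hairpins the arm ratios of the first and last 6 columns did not overlap, while those of the diets did. For the 4 hairpins with both arms, miR-126a included, the difference between the diets gave an exact permutation p from 0.372 to 0.877. That test does not take the column position into account. Egg minus casein ran from -0.30 to 0.004 within the first 6 columns and from 0.19 to 0.36 within the last 6.

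In the same rats, the split between these 2 sets of 6 was present in kidney, where 16 of 45 microRNAs shared with the liver table did not overlap (35.6%). Of the 16 microRNAs that separated the columns in liver, 12 were listed in kidney, and 4 of these separated there in the same direction. In VAT and PFC 0 of 46 and 0 of 42 shared microRNAs did not overlap between the same rats.

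The column position was then added as a term beside diet in edgeR, with the default TMM scaling and its reference kept. The SE shrank for 47 of the 52 microRNAs, from a median of 0.265 to 0.169. Then 4 microRNAs were lower (7.69%) and 1 was higher (1.92%) at an unadjusted p under 0.05, and 0 passed BH adjustment. MiR-192-5p had a log2 fold change of -0.32 and miR-21-5p of -0.55 in that fit (adjusted p = 0.0887 each, edgeR). The additional calls were let-7g-5p at -0.41 (p = 0.0188), miR-101a-3p at -0.43 (p = 0.0231) and miR-148a-5p at 0.30 (p = 0.0486), all from edgeR. With DESeq2 and the same term, miR-21-5p was lower at -0.43 (p = 0.0132) and miR-148a-5p higher at 0.44 (p = 0.0317), and miR-192-5p was at -0.19 (p = 0.121). The position of the columns and the other TMM references were tried after the data had been seen.

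Within the first 6 columns, the 3 rats on egg and the 3 on casein gave log2 ratios of the mean levels of -0.40 for miR-192-5p and -0.75 for miR-21-5p. Within the last 6 they were -0.24 and -0.36, so both microRNAs had the same sign in both sets under the scaling of all 12 libraries. Fitted and scaled on its own, the last set gave -0.06 for miR-192-5p (p = 0.732) and -0.22 for miR-21-5p (p = 0.127, edgeR), and the first gave -0.40 and -0.75 (p = 0.0113 and 0.0200, edgeR). The other value of note was miR-486, whose log2 fold change of 1.78 became 0.94 with the column term and whose egg mean held a rat at 151984 CPM next to one at 23255.

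The diet effect in liver was set against that in kidney, VAT and PFC for the 39 microRNAs listed in all 4 tissues, which gave 117 tests of the difference. By edgeR's interaction test, 0 of 117 passed BH adjustment. An unadjusted p under 0.05 was found for 6 (5.13%), near the share that chance gives at that threshold. Of these, 4 were let-7 members or miR-98 in PFC, between which reads could be split, and whose shared sign in liver depended on the scaling. The lowest adjusted p was 0.424, for let-7e-5p in PFC, where the diet effect exceeded that of liver by 1.67.

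MiR-192-5p made up a median of 11.7% of the liver counts, 3.99% in kidney, 0.261% in PFC and 0.145% in VAT. Its log2 fold change was -0.04 (SE 0.166) in kidney, -0.80 (SE 0.427) in PFC and 0.79 (SE 0.606) in VAT. The difference from liver was largest in VAT, at 1.10 (SE 0.559, unadjusted p = 0.0551, adjusted p = 0.778 from edgeR). MiR-21-5p had 0.02 (SE 0.201) in kidney, 0.08 (SE 0.24) in VAT and -0.51 (SE 0.321) in PFC. Its differences from liver were 0.58 in kidney, 0.64 in VAT and 0.05 in PFC (SE 0.326 each). Their unadjusted p was 0.0834, 0.0571 and 0.871 (edgeR's interaction test). The SEs of differences come from 1 fit whose spread is shared by the 4 tissues. For miR-192-5p in kidney that SE was 0.556, larger than those of the separate fits. None of these differences passed after adjustment, so a liver-specific effect of either microRNA was not shown.

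**Figure D5:**
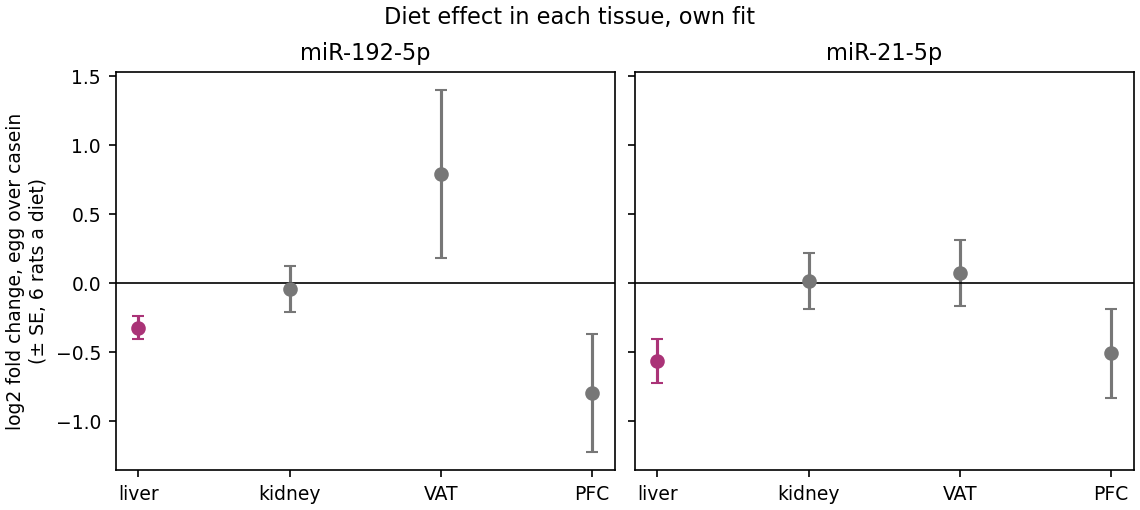
Log2 fold change of egg over casein for miR-192-5p and miR-21-5p in liver, kidney, VAT and PFC, each from its own fit to 6 rats per diet; bars are ± SE and purple marks liver. The liver values of -0.32 and -0.56 have the shortest bars, and the bars of VAT and PFC for miR-192-5p are much longer.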

How the data were processed

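Small RNA was extracted with the Lexogen SPLIT kit from liver kept in RNAlater, made into libraries with a Lexogen small RNA kit and sequenced on an Illumina HiSeq 3000. After FastQC and trimming by BBDUK, the authors used smallrnaseq, which calls Bowtie, against RNAcentral references and deposited the raw count of each microRNA in each library. Tool versions are not given in the sources used here. Columns of the authors' own DESeq comparisons (fold changes and p-values) and the gene tables were not used.

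Each of 48 microRNA columns was tied to its sample by tissue and animal number, and none was left over. All 52 liver microRNAs passed the filter of 10 counts or more in 6 or more libraries. TMM gave the library scales, and edgeR 4.0.16 the main test (quasi-likelihood F-test, robust), with BH adjustment over the 52; limma 3.58.1 and DESeq2 1.42.0 were also run, all under R 4.3.3. The code was tested on simulated data, which held no difference between the first and last 6 columns. The 95% intervals come from the edgeR standard errors and are for the difference between the diets, with the library scales taken as fixed. They leave out the choice of scaling: with other TMM references miR-192-5p reached -0.11, outside its interval of -0.51 to -0.13. Totals, shares and ratios were tested by exact two-sided permutation over 924 splits, whose smallest p is 0.00216. No 2 liver libraries agreed within sampling noise. The principal component analysis used log2 CPM with a pseudocount of 1.

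Named are the microRNAs with an unadjusted p under 0.05, the 10 of highest mean CPM, and up to 3 members of each list; sequences beyond those with p under 0.05, their seed sharers and miR-122-5p were chosen after the values were seen. The members and lists were chosen with earlier results of these data known. For the interaction, the labels tie tissues to a rat by its number; the median correlation of their deviations from the group means with liver was 0.258 for kidney, -0.126 for VAT and -0.0422 for PFC. Tissues were scaled separately, and microRNAs listed in all 4 tables were used. Alternatives were other scalings, filters and tests, leaving out each rat, and, added after seeing the data, the column position, other TMM references and scaling without miR-486. Plots used matplotlib 3.10.9 (Python 3.11.15).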

Additional observations from a re-analysis of the deposited data

Results flagged for a closer look

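In 5 of 108 groups of 6 values, 1 rat stood apart from the other 5 by Dixon's test; chance flags about 1 in 20 groups. Let-7d-5p was highest on egg in rat 12, at 5266 CPM, with the next rat at 3510. MiR-125a-5p was highest on egg in rat 8, at 5157 CPM, with the next at 1595. MiR-30a-5p was highest on casein in rat 7, at 27083 CPM, with the next at 21394. MiR-3559-5p was highest on casein in rat 9, at 978 CPM, with the next at 276. MiR-486 was highest on egg in rat 2, at 151984 CPM, with the next at 23255. None of these 5 microRNAs had an unadjusted p under 0.05 between the diets (edgeR).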

How the results depend on the processing

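Over 36 alternatives, many of which shared a scaling, 0 microRNAs passed BH adjustment. MiR-192-5p was below 0 in all 36 and under an unadjusted p of 0.05 in 19. MiR-21-5p was below 0 in all 36 and under that p in 31 (edgeR, DESeq2 or limma). For miR-192-5p, those 19 all used TMM with its default choice of reference, apart from DESeq2's Wald test. In edgeR it did not pass with DESeq2's size factors, the total count, TMM without miR-122-5p or any of the other 11 references. Adjusted p ran from 0.0716 to 0.997 for miR-192-5p and from 0.0666 to 0.984 for miR-21-5p. At an unadjusted p under 0.05, lower and higher microRNAs numbered 1 and 1 with DESeq2's size factors, 1 and 0 with the total count or without miR-122-5p in the scaling, 2 and 1 with DESeq2's Wald test, 4 and 1 with the column position, 1 and 1 with DESeq2 and the column position, 3 and 0 in the first 6 columns alone, 1 and 2 in the last 6 alone, and 0 to 1 and 0 to 3 with the other 11 TMM references. Leaving out 1 rat gave 0 to 2 lower and 0 to 3 higher, where 0 lower arose without rat 3 alone; the log2 fold changes ran from -0.35 to -0.06 for miR-192-5p and from -0.65 to -0.31 for miR-21-5p. Relative to the median of the 52, miR-192-5p stood between -0.28 and -0.05 and miR-21-5p between -0.64 and -0.20 in all fits. MiR-10b-5p, at -0.20, was at 1.30 in the last 6 columns alone (p = 0.0308, edgeR), and miR-200b-3p at 1.60 (p = 0.00169, edgeR); the cause was not tested. Filters changed nothing, since all 52 passed each. The filter settings therefore repeat the main fit and add no separate check to the counts of 36, 19 and 31.

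No paired analysis was possible for the diets because each rat ate 1 diet. For the interaction, 0 of 117 tests passed BH adjustment with the rat as a replicate block and without it, with a lowest adjusted p of 0.815 and 0.424 (edgeR); without rat 12 the lowest was 0.0608. The table held 7 zeros, of which that of miR-99a-5p stood in the deepest library, and the smallest count above 0 was 48.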

Other observations

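Of the matched microRNAs, 8 pairs lay within 10000 bases of each other on 1 strand. Let-7e-5p and miR-125a-5p, 425 bases apart on chromosome 1 within the span of Spaca6, had log2 fold changes of -0.40 and 0.78 in the default fit; neither passed the test, and with the column position in the fit they were -0.39 and 0.11. Let-7a-5p, let-7d-5p and let-7f-5p, from 1 cluster on chromosome 17, had -0.11, -0.01 and -0.05. MiR-30c-5p and miR-30e-5p, 2977 bases apart on chromosome 5, had 0.22 and -0.15.

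MiR-148a-3p and miR-152-3p share a seed and stood on opposite sides of the column split, with a ratio of the medians of the last to the first 6 columns of 0.473 and 1.89. MiR-25-3p and miR-92a-3p, which share another, had ratios of 1.51 and 0.497, and both overlapped between the columns.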
